A study of Homo sapiens with 10 samples.

Results

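Cells of MCF10A, an immortalised but non-tumorigenic human mammary epithelial line, were compared after 24 h on a stiff and on a soft gel. The stiff gel had a stiffness of 60 kPa and the soft gel one of 400 Pa, and the question is which mRNA programs differ between them. The comparison takes 4 of the 10 libraries of the study, 2 from 60 kPa gels and 2 from 400 Pa gels, both at 5 mM glucose, as the labels and column headings assign them. Each library pooled 4 gel cultures, per the labels, which call the 2 libraries of a group biological replicates, so a library is an average over cultures. Both groups were grown on fibronectin over polyacrylamide, in medium with horse serum, epidermal growth factor, insulin, hydrocortisone, cholera toxin and antibiotics. The 60 kPa gels held more acrylamide and more bis-acrylamide than the 400 Pa gels, so stiffness and gel composition changed together. A single cell line was studied. The p-values measure the spread between these libraries, which for each gene was drawn mainly from the spread of all genes.

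Cells pull on the matrix through integrins and actomyosin, and a stiffer matrix resists that pull. Force at integrin adhesions acts on focal adhesion kinases, on small GTPases that control actin and on the coactivators YAP and TAZ, which move to the nucleus and act with TEAD factors. In mammary epithelium a soft matrix is known to favour polarised, differentiated structures, and a stiff one growth and spreading. Genes are described below by role, from cell division and the nucleus to the cytoskeleton, the epithelium, signalling and metabolism.

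The 60 kPa libraries were shallower, with 7.14 M and 5.862 M mapped reads, against 28.61 M and 12.95 M in those of 400 Pa. Reads in exons numbered 5.123 M and 3.838 M at 60 kPa, against 18.4 M and 8.544 M at 400 Pa, so genes with few reads were measured less precisely on the stiff gel. Throughout, the value of the deeper library of a group stands before that of the shallower one. Levels are FPKM, reads scaled to the exon length of the gene and to the mapped reads of the library, as deposited by the authors. Changes are differences of the authors' stabilised log2 values, 60 kPa minus 400 Pa, which understate the change of genes with few reads. Across genes, libraries of a group correlated at 0.979 (60 kPa) and 0.991 (400 Pa) on log2(FPKM + 1), Pearson. The median gene differed by 0.07 between the 60 kPa libraries and by 0.06 between the 400 Pa libraries, against a median absolute difference of 0.16 between the group means.

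The libraries of both groups also differed by the GC content of transcripts. Across genes (not independent of each other), library deviations from the gene mean had a Spearman correlation with GC content of -0.66 and -0.69 at 60 kPa, against 0.67 and 0.73 at 400 Pa. The trend runs with the groups, so its source in the gels or in library preparation cannot be told apart. In the quintile of genes with the lowest GC content (up to 41.5%) the median log2 fold change was 0.29, and in the quintile with the highest (from 58.6%) it was -0.22. A gene was therefore called only if it passed limma with Benjamini-Hochberg adjustment (adjusted p below 0.05) with the same sign on the deposited values and after each library was adjusted for GC content. Below, "rose" and "fell" mean a call in both fits. A change after this adjustment is given as GC-adjusted.

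Of 12720 genes tested, 1513 rose at 60 kPa (11.9%) and 1313 fell (10.3%), 2826 in all (22.2%). Without the shallower 400 Pa library 895 rose and 737 fell, and on log2(FPKM + 1) of the same 4 libraries 835 rose and 650 fell. In mean FPKM, 278 of the rises and 177 of the falls reached 2-fold, and 1020 and 537 reached 1.5-fold. FPKM of the groups did not overlap for 98.1% of called genes, against 71.3% of all tested genes, and none of the called genes whose 4 FPKM values are given below overlapped. The joint call still depends on GC content, since 23.6% of genes in the lowest quintile rose and 1.39% fell, while 0.557% of those in the highest quintile rose and 16.6% fell. Between 45 and 55% GC, a band chosen after the data were seen, 519 of 4264 genes rose (12.2%) and 539 fell (12.6%), so members of a list in that band are counted separately where it matters.

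**Figure D1:**
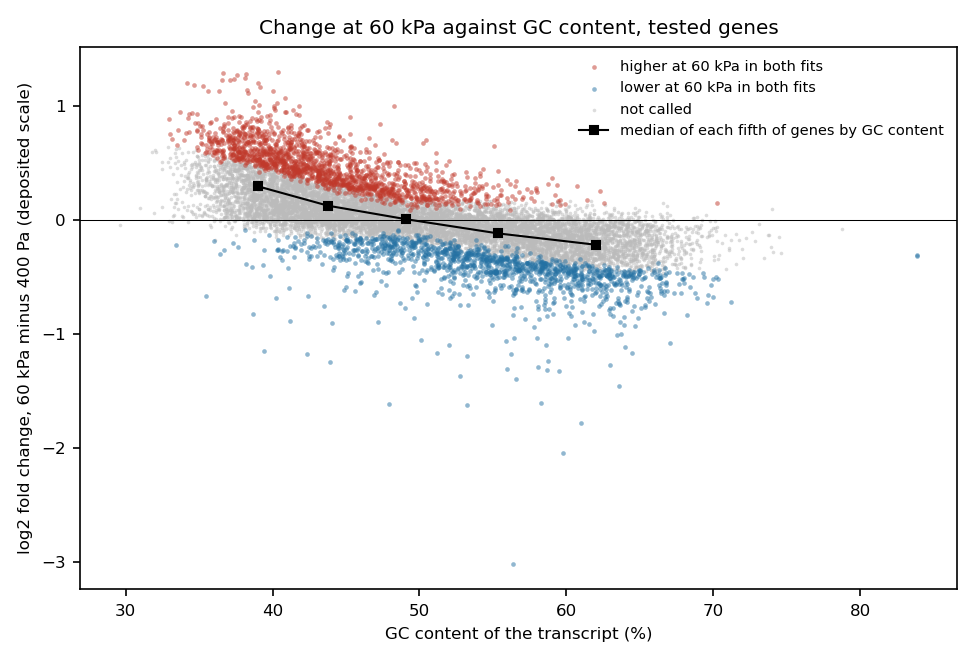
Each point is a tested gene with a known GC content. The horizontal axis is the GC content of the transcript in percent and the vertical axis the log2 fold change, 60 kPa minus 400 Pa, on the deposited scale; red genes rose and blue genes fell in both fits, and squares are medians of GC quintiles. The medians run from 0.29 at low GC content to -0.22 at high GC content, and called genes lie above and below that slope.

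Called genes whose mean reached 5 FPKM were ranked by log2 fold change on deposited values, which carry the GC trend. The 20 largest rises were, but for the chromatin proteins DEK and ANP32E, genes of mitosis. A ranking on GC-adjusted values would hold some other genes, since the exosome nuclease DIS3 (0.77) would stand above NUF2 (0.73). DEK had 104 and 92.1 FPKM at 60 kPa, against 35.8 and 32.4 FPKM at 400 Pa. DEK binds DNA and histones and lies at chr6:18224400-18264799 on the minus strand (hg19). Its log2 fold change was 1.30 ± 0.06 (SE; limma, Benjamini-Hochberg adjusted p = 1.28e-24), and 1.03 after GC adjustment (adjusted p = 1.18e-12). HMMR had 47.4 and 45.02 FPKM at 60 kPa, against 14.9 and 16.2 FPKM at 400 Pa. DLGAP5 had 38.9 and 38.6 FPKM at 60 kPa, against 12.6 and 12.2 FPKM at 400 Pa. Both encode proteins of the mitotic spindle, with changes of 1.28 ± 0.06 and 1.28 ± 0.07, or 0.91 and 0.95 after GC adjustment. For all 20 genes the stiff libraries lay above the soft ones without overlap, the smallest change was that of the kinetochore protein NUF2 (1.04), and GC-adjusted changes lay between 0.73 and 1.03. All 20 transcripts were poor in GC, from 34.2% for KIF20B to 40.8% for CENPF.

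The 20 largest falls held keratins, membrane proteins of the apical surface and stress-linked enzymes. KRT15 had 21.6 and 17.9 FPKM at 60 kPa, against 193 and 209 FPKM at 400 Pa. KRT15, a keratin of basal keratinocytes, lies at chr17:39669997-39675270 on the minus strand (hg19) and changed by -3.02 ± 0.06, or -2.86 after GC adjustment. ALDH3A1 had 51.9 and 45.8 FPKM at 60 kPa, against 207 and 222 FPKM at 400 Pa. ALDH3A1, an aldehyde dehydrogenase of epithelia, lies at chr17:19641298-19648925 on the minus strand and changed by -2.04 ± 0.05 (GC-adjusted -1.82). KRT16, a keratin of stressed epidermis, had 16.6 and 13.6 FPKM at 60 kPa, against 67.5 and 68.8 FPKM at 400 Pa, a change of -1.78 (GC-adjusted -1.54). Falls of -1.62 to -1.17 followed, among them FXYD3, a regulator of the sodium pump, GRINA, PSCA, the small heat shock protein HSPB1, PPL, a plakin of the cornified envelope, and TSC22D3, a glucocorticoid target. Unlike the rises, these transcripts spanned a wide range of GC content, from 42.4% for AKR1C1 to 64.5% for HSPB1, and the falls of AKR1C1, TXNIP and MAOA were larger after GC adjustment.

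**Figure D2:**
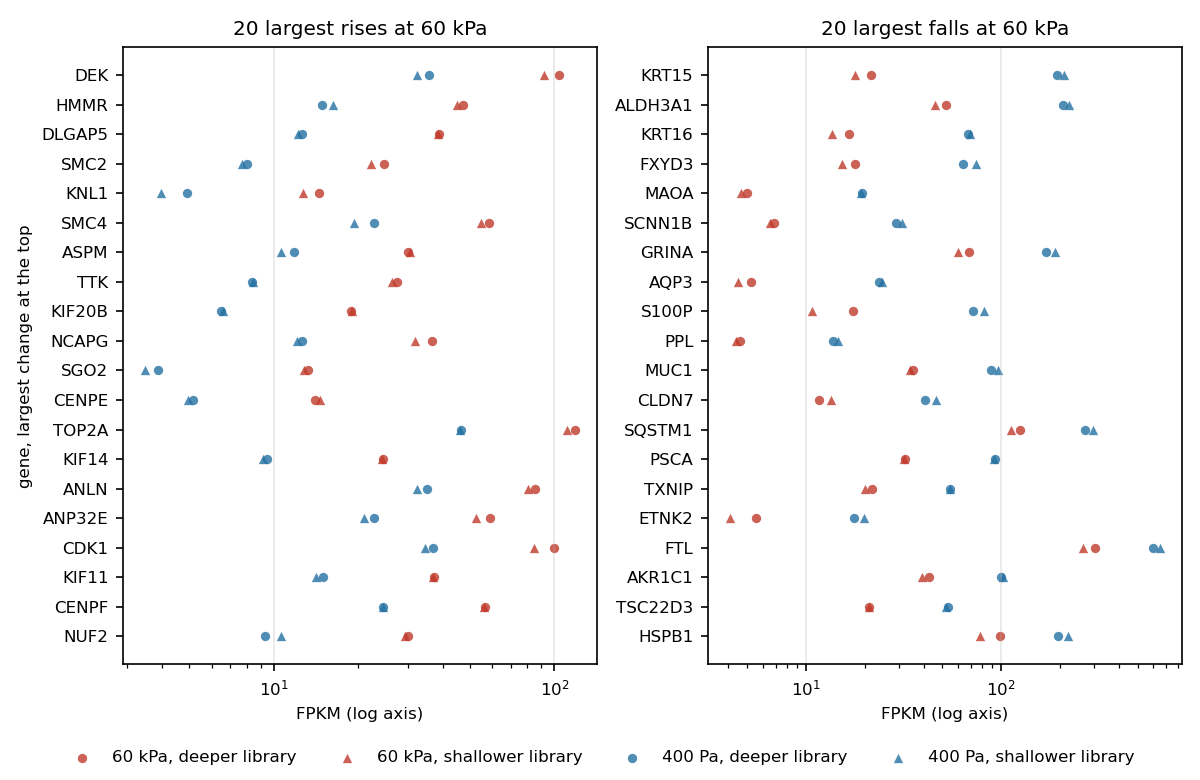
FPKM on a log axis of the 20 largest rises (left) and the 20 largest falls (right) among called genes whose mean reached 5 FPKM; red symbols are 60 kPa and blue symbols 400 Pa libraries, circles the deeper and triangles the shallower one. In every row the 2 red symbols lie on one side of the 2 blue ones, from DEK with 104 and 92.1 FPKM at 60 kPa against 35.8 and 32.4 FPKM at 400 Pa to KRT15 with 21.6 and 17.9 FPKM at 60 kPa against 193 and 209 FPKM at 400 Pa.

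The 5 lists with the largest shares of rises were all of cell division. The 10 lists of replication and mitosis genes held 262 tested genes, of which 138 rose (52.7%) and 5 fell (1.91%), against 11.9 and 10.3% of all genes. The 5 that fell were IMPDH2 (-0.50), CHMP2A (-0.38), SEPT9 (-0.44), the polymerase subunit POLD2 (-0.34) and the phosphatase CDC25B (-0.35). The call of POLD2 ended without the deeper 400 Pa library (-0.39), the shallower 400 Pa library (-0.30) and the shallower 60 kPa library (-0.32), and that of CDC25B ended without the deeper 400 Pa library (-0.34) and the shallower 400 Pa library (-0.36). Among members at or above the median GC content of all genes (49.1%), 28 of 82 rose (34.1%) and the same 5 fell (6.1%), against 4.01 and 16.3% of all 6288 such genes. In the band of 45 to 55% GC 45 of 80 rose and 1 fell, with a median log2 fold change of 0.24 before and after the adjustment. The proliferation marker MKI67, of 48.3% GC, shows the size of the change where GC content was near the middle. MKI67 had 64.2 and 62.2 FPKM at 60 kPa, against 28.5 and 29.6 FPKM at 400 Pa, a change of 1.00 ± 0.04 that was 0.98 after GC adjustment. In bulk RNA, more dividing cells and more mRNA per dividing cell cannot be told apart.

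Spindle and chromosome proteins led the division genes. Of 28 mitotic kinesins and spindle assembly factors 22 rose and 0 fell, with a median log2 fold change of 0.67 (GC-adjusted 0.50). KIF11, the motor that slides spindle poles apart, had 37.2 and 36.8 FPKM at 60 kPa, against 14.9 and 14.2 FPKM at 400 Pa. ASPM, a protein of the spindle pole, had 30.2 and 30.7 FPKM at 60 kPa, against 11.8 and 10.6 FPKM at 400 Pa. PRC1, the bundler of midzone microtubules, had 75.6 and 70.7 FPKM at 60 kPa, against 40.3 and 39.3 FPKM at 400 Pa. Its transcript has 46.5% GC. Changes of these 3 were 1.11, 1.23 and 0.71, and after GC adjustment 0.79, 0.87 and 0.65. Of 22 genes of condensin and cohesin, the rings that fold and hold chromosomes, 18 rose and 0 fell (median 0.62, GC-adjusted 0.46). SMC2 had 24.7 and 22.2 FPKM at 60 kPa, against 8.01 and 7.70 FPKM at 400 Pa. SMC4 had 58.6 and 54.6 FPKM at 60 kPa, against 22.7 and 19.4 FPKM at 400 Pa. NCAPG of condensin (1.20) and STAG2 of cohesin (0.86) rose too, and all 5 members between 45 and 55% GC rose.

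Kinetochore and checkpoint genes rose in the main. Of 38 tested, 22 rose and 0 fell (median 0.42, GC-adjusted 0.27). KNL1, the scaffold of the outer kinetochore, had 14.5 and 12.7 FPKM at 60 kPa, against 4.89 and 3.95 FPKM at 400 Pa. TTK, the kinase of the spindle checkpoint, had 27.5 and 26.5 FPKM at 60 kPa, against 8.38 and 8.40 FPKM at 400 Pa. SGO2, a guardian of centromeric cohesion, and the motor CENPE each rose by 1.18. Of 23 cytokinesis genes 13 rose and 2 fell. ANLN, the scaffold of the cleavage furrow, had 85.3 and 80.4 FPKM at 60 kPa, against 35.1 and 32.5 FPKM at 400 Pa. The septin SEPT7 rose by 0.95, and the 2 that fell were the septin SEPT9 (-0.44) and CHMP2A (-0.38), of the membrane-cutting ESCRT-III complex, whose call ended without the shallower 400 Pa library (-0.36). Of 22 centrosome genes 10 rose and 0 fell, with PLK4, the kinase that starts centriole copying, at 0.72 (GC-adjusted 0.40). The anaphase-promoting complex and mitotic kinases had the smallest GC-adjusted median: of 28, 9 rose and 1 fell, with a median of 0.17 (GC-adjusted 0.06). Among its 4 largest rises, CDC27 (0.62) is a subunit of the complex. CDK1, the kinase that drives entry into mitosis, had 99.9 and 84.9 FPKM at 60 kPa, against 36.96 and 34.5 FPKM at 400 Pa. The kinases NEK2 and AURKA changed by 0.92 and 0.38.

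Lists of replication and repair held rises as well. Of 21 licensing factors, which load the helicase at origins, 12 rose and 0 fell (median 0.30, GC-adjusted 0.25), and the 9 members between 45 and 55% GC all rose. GMNN, the inhibitor of relicensing, had 50.5 and 48.3 FPKM at 60 kPa, against 26.8 and 25.3 FPKM at 400 Pa. MCM10, ORC6 and CDC6 rose by 0.46, 0.44 and 0.40. Of 28 fork and polymerase genes 12 rose and 1 fell, led by TOP2A, the topoisomerase that untangles chromosomes. TOP2A had 119 and 111 FPKM at 60 kPa, against 46.6 and 46.3 FPKM at 400 Pa, a change of 1.17 ± 0.04. CLSPN, a mediator of the replication checkpoint, and the topoisomerase TOP1 followed at 0.86 and 0.83. Of 22 nucleotide synthesis genes 6 rose and 1 fell. The ribonucleotide reductase subunits RRM1 (0.66) and RRM2 (0.45) and thymidylate synthase TYMS (0.49) rose, while IMPDH2, of guanine synthesis, was the member that fell, at -0.50. Of 30 recombination and Fanconi genes 14 rose and 0 fell, among them BRCA1 (0.81, GC-adjusted 0.59) and the helicase BLM (0.80, GC-adjusted 0.56). Of the 4 members between 45 and 55% GC 0 rose. Their transcripts are poor in GC (median 40.6%), and the list's median of 0.45 was 0.19 after GC adjustment.

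**Figure D3:**
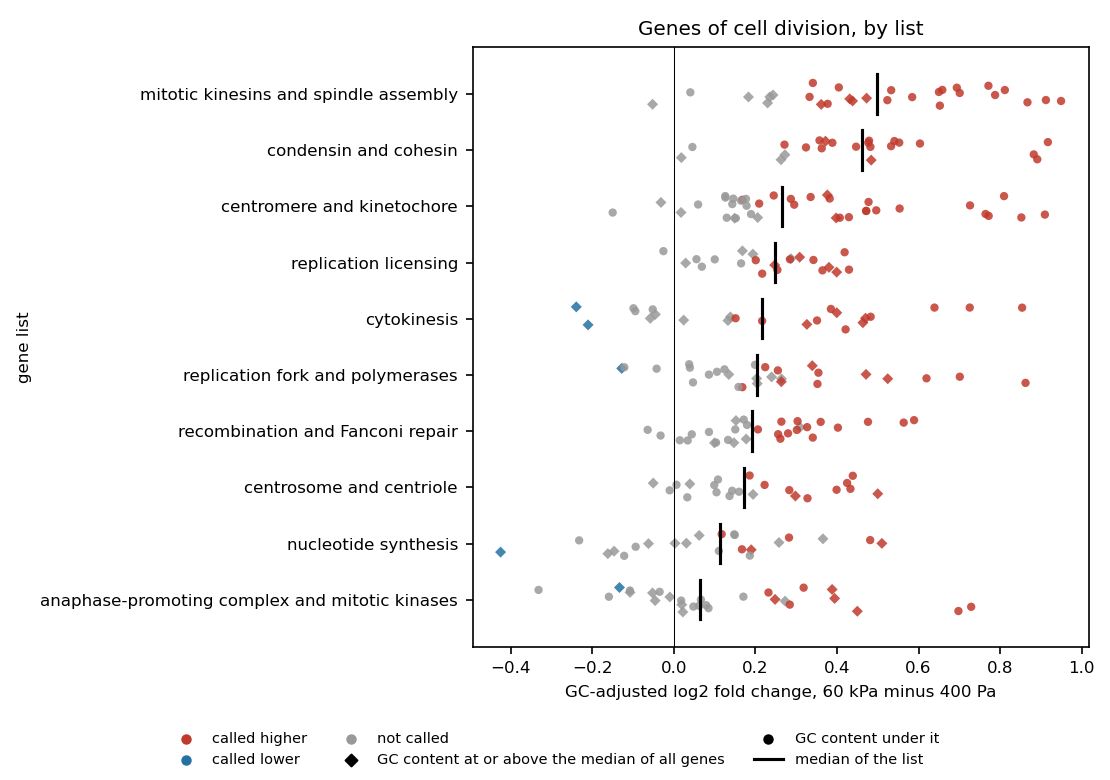
GC-adjusted log2 fold change (60 kPa minus 400 Pa, horizontal axis) of each tested member of the 10 division lists (rows); red points rose, blue points fell and grey points were not called, diamonds have a GC content at or above the median of all genes, and black bars are list medians. Bars run from 0.50 for kinesins and spindle assembly to 0.06 for the anaphase-promoting complex and mitotic kinases, and all lie above 0.

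Genes of mitosis share promoter elements that are known from textbooks: CCAAT boxes, bound by NF-Y, and the cell cycle genes homology region, here read as TTTGAA or TTCGAA, which the DREAM and MuvB complexes bind. Promoters of RefSeq (GRCh38.p14, 250 bases before and 50 after the start) matched 10368 tested genes, and letters were searched on both strands, counting matches that overlap. TTTGAA or TTCGAA was found in 49 of 123 promoters of division genes that rose (39.8%), against 16.8% of all 1289 genes that rose, 10.1% of the 1076 that fell and 11.4% of all. For CCAAT these shares were 58.5%, 39.8%, 35.8% and 37.2%, and for both elements together 28.5%, 9.78%, 3.44% and 4.9%. Among rises outside the division lists the share with TTTGAA or TTCGAA was 14.3%. By list, whether or not a gene was called, the element was in 18 of 27 kinesin and spindle promoters (66.7%), 18 of 32 of kinetochore genes (56.2%) and 9 of 18 of condensin and cohesin (50%), but in 1 of 18 of replication licensing (5.56%). CCAAT was as frequent in licensing as in kinesin promoters, 66.7% each. TGACNNNGC, the antioxidant response element, was in 15.9% of genes that fell and 15.1% of all. These are matches of letters, not sites of binding, and no share was tested.

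Of the 20 largest rises, 17 matched a promoter, and 15 of these held TTTGAA or TTCGAA and 10 both elements, against 1 of 14 for each among the largest falls. The 250 bases before the start are shown for 4 of the rises, in their own 5′ to 3′ direction, to show where the elements stand; capitals mark CCAAT and TTTGAA or TTCGAA on either strand, so that ATTGG and TTCAAA are the reverse letters, and neighbouring matches can run together. DEK is at chr6:18264531-18264780 (minus strand), HMMR at chr5:163460382-163460631 (plus), DLGAP5 at chr14:55191586-55191835 (minus) and KIF11 at chr10:92592880-92593129 (plus).
DEK: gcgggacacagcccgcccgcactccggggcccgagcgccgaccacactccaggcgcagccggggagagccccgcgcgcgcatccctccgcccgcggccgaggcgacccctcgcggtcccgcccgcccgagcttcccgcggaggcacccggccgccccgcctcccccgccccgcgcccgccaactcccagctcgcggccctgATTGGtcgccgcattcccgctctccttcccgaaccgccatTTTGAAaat
HMMR: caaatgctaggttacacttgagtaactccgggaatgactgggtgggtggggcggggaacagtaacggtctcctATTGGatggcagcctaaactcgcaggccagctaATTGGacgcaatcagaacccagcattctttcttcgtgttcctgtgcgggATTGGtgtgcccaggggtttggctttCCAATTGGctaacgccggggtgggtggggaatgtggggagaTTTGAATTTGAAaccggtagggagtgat
DLGAP5: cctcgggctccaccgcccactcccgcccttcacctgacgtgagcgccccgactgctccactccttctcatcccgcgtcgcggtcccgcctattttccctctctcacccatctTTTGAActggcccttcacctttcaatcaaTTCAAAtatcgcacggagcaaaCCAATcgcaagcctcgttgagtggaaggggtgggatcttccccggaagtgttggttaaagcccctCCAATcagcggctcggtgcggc
KIF11: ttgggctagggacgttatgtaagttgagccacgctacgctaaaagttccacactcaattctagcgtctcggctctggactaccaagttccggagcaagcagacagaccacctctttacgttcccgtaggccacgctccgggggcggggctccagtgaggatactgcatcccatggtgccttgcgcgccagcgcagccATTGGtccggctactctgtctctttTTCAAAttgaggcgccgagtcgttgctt

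Outside division, lists of nuclear RNA and chromatin proteins also leaned upward, and lists of epithelial differentiation and of detoxifying and lipid enzymes downward.

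**Figure D4:**
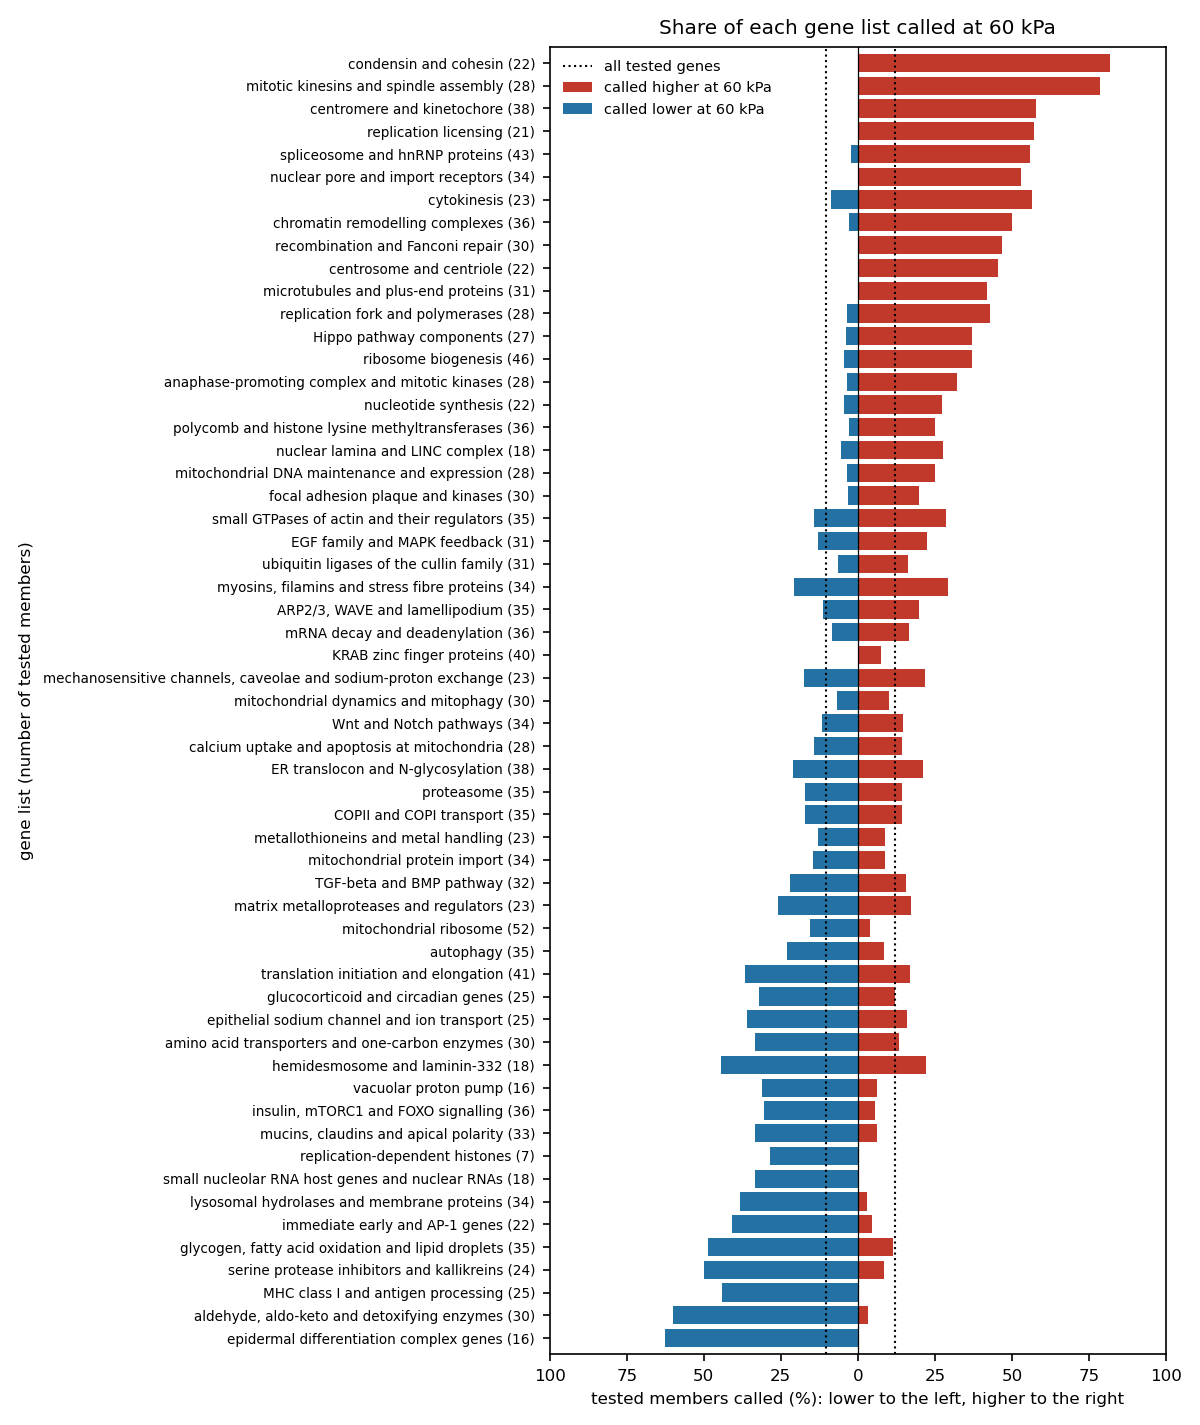
Share of tested members called higher (red, to the right) and lower (blue, to the left) at 60 kPa, in percent, for 57 gene lists with the number tested in brackets; dotted lines are the shares of all tested genes, 11.9% higher and 10.3% lower. Condensin and cohesin, with 18 of 22 higher, stands at the top, and the epidermal differentiation complex, with 10 of 16 lower, at the bottom.

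Splicing genes mostly rose. Of 43 spliceosome and hnRNP genes 24 rose and 1 fell (median 0.37, GC-adjusted 0.17), and 9 of 14 members between 45 and 55% GC rose. HNRNPA2B1, an RNA-binding protein that sorts and splices mRNAs, had 229 and 203 FPKM at 60 kPa, against 117 and 110.3 FPKM at 400 Pa. SRSF3, a serine- and arginine-rich splicing factor, had 104 and 94.7 FPKM at 60 kPa, against 56.2 and 54.7 FPKM at 400 Pa. At 50.4% GC it changed by 0.70 ± 0.05 and by 0.73 after GC adjustment. HNRNPR, another RNA-binding protein, rose by 0.81, and PRPF8, the core of the spliceosome, was the member that fell (-0.18), a call that ended without the deeper 400 Pa library (-0.19) and the shallower 400 Pa library (-0.16). Of 34 nuclear pore and transport genes 18 rose and 0 fell (median 0.38, GC-adjusted 0.18). CSE1L, the exporter that recycles importin alpha, had 106 and 91.2 FPKM at 60 kPa, against 52.7 and 52.8 FPKM at 400 Pa. The cytoplasmic filament protein RANBP2 (0.90), the importin IPO7 (0.79) and the basket protein TPR (0.76) rose too. Between 45 and 55% GC, 2 of 8 pore and transport genes rose.

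Of 36 chromatin remodelling genes 18 rose and 1 fell (median 0.24, GC-adjusted 0.19). SMARCA5, the ISWI motor, had 24.7 and 22.2 FPKM at 60 kPa, against 12.02 and 11.7 FPKM at 400 Pa. The remodellers CHD1 and ATRX changed by 0.77 and 0.74, or 0.42 and 0.38 after GC adjustment, and SMARCD2 of the SWI/SNF complex was the member that fell (-0.58). Of 36 polycomb and histone methyltransferase genes 9 rose and 1 fell. SUZ12, a subunit of the complex that methylates H3K27, was at 0.73 (GC-adjusted 0.39). KRAB zinc finger genes depended on the adjustment: of 40, 3 rose and 0 fell in both fits, but 17 passed as higher and 1 as lower on deposited values alone, and 3 as higher and 17 as lower on GC-adjusted values alone. Of 18 genes of the nuclear lamina and its linkers 5 rose and 1 fell. LMNB1, the B-type lamin of dividing cells, had 78.8 and 77.3 FPKM at 60 kPa, against 44.7 and 46.8 FPKM at 400 Pa, a change of 0.58 ± 0.06 (GC-adjusted 0.63). LMNA, the A-type lamin, had 205 and 184 FPKM at 60 kPa, against 218 and 236 FPKM at 400 Pa. Its change of -0.33 was -0.08 after GC adjustment (limma, adjusted p = 0.0766) and was not called. The lamin B receptor LBR, TMPO and the lamin protease ZMPSTE24 rose by 0.60, 0.63 and 0.63, and the giant nesprin SYNE2, which ties the nucleus to actin, fell by 0.24.

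Genes that make ribosomes and genes that use them had different balances. Of 46 ribosome biogenesis factors 17 rose and 2 fell (median 0.14, GC-adjusted 0.11), and 4 of 16 between 45 and 55% GC rose and 2 fell. NOP58, a core protein of box C/D particles, had 55.3 and 47.5 FPKM at 60 kPa, against 24.3 and 23.8 FPKM at 400 Pa. LTV1, DDX21 and UTP20 changed by 0.74, 0.66 and 0.63. Of 41 translation factors 15 fell and 7 rose, and of 19 between 45 and 55% GC 11 fell and 1 rose. EEF2, the elongation factor that moves the ribosome, had 922 and 813 FPKM at 60 kPa, against 1286 and 1359 FPKM at 400 Pa, a change of -0.69 ± 0.02 (GC-adjusted -0.46). The initiation factors EIF3J (0.63, GC-adjusted 0.31) and EIF1AX (0.67, GC-adjusted 0.27), both poor in GC, rose. Of 36 mRNA decay genes 6 rose (16.7%) and 3 fell (8.33%), against 11.9% and 10.3% of all genes. The exosome nuclease DIS3 was at 1.00 and the antiproliferative BTG1, which recruits deadenylases, at -0.83. Its paralog BTG2 fell too (-0.38).

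Genes linked to mechanical sensing did not move as 1 group. Of 27 Hippo pathway components 10 rose and 1 fell (median 0.14, GC-adjusted 0.14). YAP1, the coactivator, had 38.8 and 37.1 FPKM at 60 kPa, against 24.6 and 23.5 FPKM at 400 Pa, a change of 0.47 ± 0.06 (GC-adjusted 0.31). WWTR1, which encodes TAZ, had 15.3 and 15.5 FPKM at 60 kPa, against 10.8 and 10.4 FPKM at 400 Pa. It passed on deposited values (0.35) but not after GC adjustment (0.10; limma, adjusted p = 0.196). MAP4K4, TAOK1 and MOB1A, which act on or with the LATS kinases that restrain YAP, also rose, by 0.54, 0.67 and 0.57. Rises therefore included the coactivator and genes that restrain it.

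Integrin subunits moved in both directions. ITGB1, the beta subunit of fibronectin receptors, had 145 and 137 FPKM at 60 kPa, against 80.95 and 78.8 FPKM at 400 Pa, a change of 0.70 ± 0.05 (GC-adjusted 0.42). ITGB4, the hemidesmosome subunit, had 103 and 91.7 FPKM at 60 kPa, against 155 and 167 FPKM at 400 Pa, a change of -0.79 ± 0.04 (GC-adjusted -0.53). ITGA6, the alpha partner of ITGB4, rose (0.58, GC-adjusted 0.40). Of 30 focal adhesion plaque genes 6 rose and 1 fell. The kinases YES1 (0.76) and PTK2, the focal adhesion kinase (0.38, GC-adjusted 0.26), and the adaptors LIMS1 (0.59) and DOCK1 (0.51) rose, and BCAR1 (-0.47) fell. VCL, which encodes vinculin, had 43.6 and 41.7 FPKM at 60 kPa, against 40.5 and 41.6 FPKM at 400 Pa. Its change of -0.03 (limma, adjusted p = 0.625) was not called. The mechanically gated channel PIEZO1 had 19.5 and 19.3 FPKM at 60 kPa, against 20.3 and 23.2 FPKM at 400 Pa. Its change of -0.23, or 0.04 after GC adjustment, was not called. Of 23 genes of mechanosensitive channels, caveolae and sodium-proton exchange 5 rose and 4 fell. The actin linker RDX was at 0.74 and caveolin CAV2 at 0.47 (GC-adjusted 0.21), against -0.47 for SLC9A3R1 and -0.49 for TMEM63B. The calls of single genes did not all hold without a library: that of BCAR1 ended without the deeper 400 Pa library (-0.51), the shallower 400 Pa library (-0.43) and the shallower 60 kPa library (-0.39), that of SLC9A3R1 ended without the deeper 400 Pa library (-0.50) and the shallower 400 Pa library (-0.44) and that of CAV2 ended without the shallower 400 Pa library (0.41), log2 fold changes in brackets.

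Cytoskeletal lists also held both directions. Of 35 small GTPases that control actin and their regulators 10 rose and 5 fell. ROCK1, a kinase that activates myosin, had 11.9 and 10.7 FPKM at 60 kPa, against 5.82 and 5.24 FPKM at 400 Pa. ROCK2, its paralog, had 11.2 and 10.3 FPKM at 60 kPa, against 4.98 and 4.82 FPKM at 400 Pa. For both genes the groups did not overlap, with changes of 0.73 and 0.81 (GC-adjusted 0.47 and 0.53). ARHGAP11A and the formin DIAPH3 rose by 0.87 and 0.76. Of 34 myosin and stress fibre genes 10 rose and 7 fell. MYH10, the B isoform of nonmuscle myosin II, rose (0.48, GC-adjusted 0.48). MYH9, the A isoform, had 151 and 135 FPKM at 60 kPa, against 139 and 144 FPKM at 400 Pa, so the groups overlapped, and its change of -0.07 was not called. Caldesmon, CALD1, rose by 0.49, and zyxin, ZYX, fell (-0.48, GC-adjusted -0.21), a call that ended without the shallower 400 Pa library (-0.43). Of 35 genes of ARP2/3, WAVE and the lamellipodium 7 rose and 4 fell, with ACTR2 of the ARP2/3 complex at 0.63, NCKAP1 of the WAVE complex at 0.56, the capping protein CAPZA2 at 0.64 and coronin CORO1B at -0.80. Gelsolin, GSN, which severs filaments, fell by 0.51.

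Microtubule genes held no fall. Of 31 tested 13 rose and 0 fell (median 0.16, GC-adjusted 0.20), and 6 of 10 between 45 and 55% GC rose. KIF5B, the heavy chain of kinesin-1, had 55.2 and 48.6 FPKM at 60 kPa, against 23.8 and 21.96 FPKM at 400 Pa, a change of 1.01 ± 0.05 (GC-adjusted 0.70). The destabiliser STMN1, the plus-end protein CLIP1 and the minus-end protein CAMSAP2 rose by 0.47, 0.65 and 0.62. After GC adjustment CLIP1 stood at 0.55 and CAMSAP2 at 0.27. Vimentin, VIM, the intermediate filament of mesenchymal cells, rose by 0.12, with 505 and 458 FPKM at 60 kPa against 405 and 425 FPKM at 400 Pa.

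**Figure D5:**
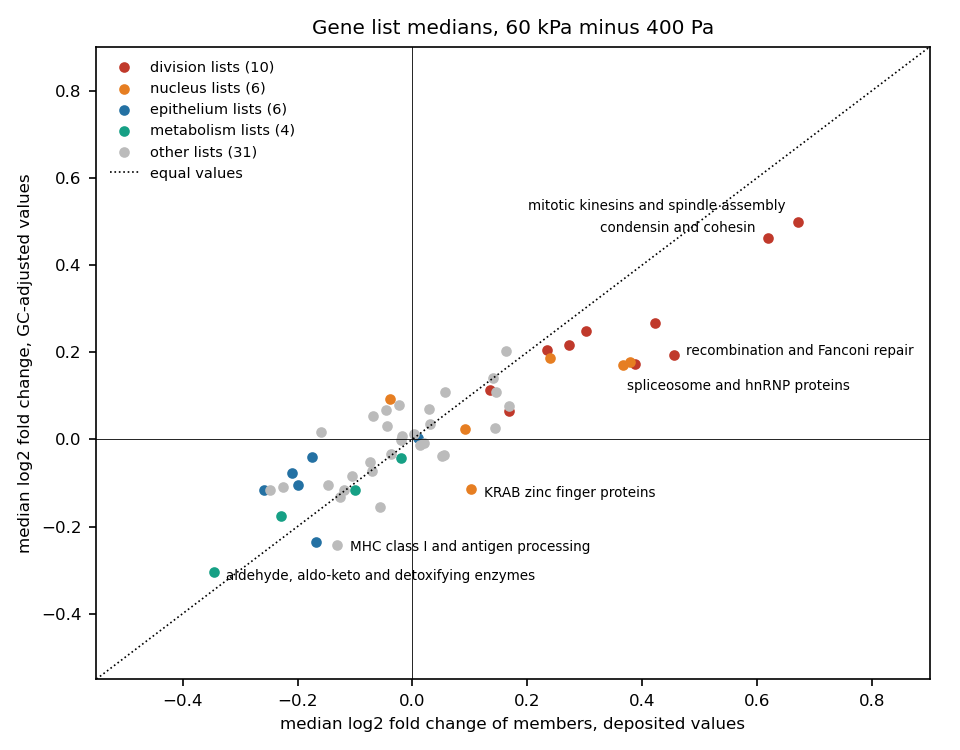
Median log2 fold change (60 kPa minus 400 Pa) of the members of each of 57 gene lists on deposited values (horizontal axis) and after GC adjustment (vertical axis); colours mark groups of lists and the dotted line equal values. Kinesins and spindle assembly lie at 0.67 and 0.50, detoxifying enzymes at -0.35 and -0.30, and KRAB zinc finger genes change sign, from 0.10 to -0.11.

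Genes of epithelial barriers mostly fell where they were called. Of 16 tested genes of the epidermal differentiation complex, a cluster on chromosome 1 that encodes cornified envelope and S100 proteins, 10 fell and 0 rose, and 7 of 9 between 45 and 55% GC fell. SPRR1B, a precursor of the cornified envelope, had 2.50 and 1.39 FPKM at 60 kPa, against 17.3 and 19.96 FPKM at 400 Pa. S100A14 had 423 and 373 FPKM at 60 kPa, against 502 and 515 FPKM at 400 Pa. S100A6 had 1712 and 1498 FPKM at 60 kPa, against 2090.4 and 2089 FPKM at 400 Pa. Changes were -0.74, -0.43 and -0.46 on the stabilised scale, and SPRR1B, a gene with few reads, differed by more in FPKM than on that scale. The other 18 listed genes of the complex had too few reads to be tested. Of 24 protease inhibitors and kallikreins 12 fell and 2 rose, and of 10 between 45 and 55% GC 4 fell and 1 rose. SLPI, an inhibitor of leukocyte elastase, had 116 and 102 FPKM at 60 kPa, against 178 and 177 FPKM at 400 Pa, a change of -0.66 ± 0.06 (GC-adjusted -0.60). Cystatin C (CST3), the channel-activating protease PRSS8 and SERPINA3 fell by 0.77, 0.68 and 0.57. SERPINB5, known as maspin, was among the 2 that rose (0.49).

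Apical and junction genes leaned the same way. Of 33 mucins, claudins and polarity genes 11 fell and 2 rose. MUC1, the apical mucin, had 35.3 and 34.2 FPKM at 60 kPa, against 88.9 and 96.3 FPKM at 400 Pa, a change of -1.31 ± 0.06 (GC-adjusted -1.10). CLDN7, a claudin, had 11.7 and 13.4 FPKM at 60 kPa, against 40.6 and 46.5 FPKM at 400 Pa. LLGL2, a polarity protein, was at -0.71, and the 2 rises were CLDN12 (0.43) and the tight junction scaffold TJP1 (0.34). E-cadherin, CDH1, fell (-0.42, GC-adjusted -0.33), with 16.3 and 13.5 FPKM at 60 kPa against 19.5 and 19.8 FPKM at 400 Pa. Of 25 genes of the epithelial sodium channel and ion transport 9 fell and 4 rose. SCNN1B, a channel subunit, had 6.83 and 6.54 FPKM at 60 kPa, against 28.96 and 30.98 FPKM at 400 Pa. AQP3, an aquaglyceroporin, had 5.26 and 4.49 FPKM at 60 kPa, against 23.5 and 24.6 FPKM at 400 Pa. FXYD3 had 17.8 and 15.3 FPKM at 60 kPa, against 63.5 and 74.5 FPKM at 400 Pa. The 3 changes were -1.60, -1.40 and -1.62, and the sulphate transporter SLC26A2 and the chloride cotransporter SLC12A2 rose by 0.66 and 0.66.

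The hemidesmosome list held calls in both directions. Of 18 members 8 fell and 4 rose (GC-adjusted median -0.04). The list is rich in GC (median 59.9%), and of 4 members between 45 and 55% GC 0 fell and 2 rose. LAMB2 and LAMA5, chains of laminins other than laminin-332, were at -0.84 and -0.64. LAMB3, the beta chain of laminin-332, fell too (-0.36, GC-adjusted -0.14), while its partner chain LAMA3 (0.40) rose. Of 23 metalloproteases and regulators 6 fell and 4 rose, with MMP28 at -0.93, ADAM15 at -0.69 and basigin, BSG, at -0.61, against 0.70 for ADAM9.

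The labelled cell type was checked against lineage markers, and basal keratins were abundant in all libraries. KRT5 had 1357 and 1225 FPKM at 60 kPa, against 1613 and 1652 FPKM at 400 Pa. KRT14 had 195 and 175 FPKM at 60 kPa, against 239 and 249 FPKM at 400 Pa. KRT17 had 472 and 401 FPKM at 60 kPa, against 796 and 839 FPKM at 400 Pa. All 3 fell, by 0.42, 0.46 and 0.97 (GC-adjusted -0.25, -0.23 and -0.72). Of 10 basal markers 6 fell and 2, SNAI2 (0.63) and EGFR (0.15), rose, though the call of EGFR ended without the deeper 400 Pa library (0.17) and the shallower 400 Pa library (0.14). Their summed level was 2464 and 2212 FPKM at 60 kPa, against 3138 and 3261 FPKM at 400 Pa. Of 7 tested luminal markers 5 fell and 0 rose, with KRT8 at -0.82 and ELF3, an epithelial factor, at 0.179 and 0.109 FPKM on 60 kPa against 2.98 and 2.60 FPKM on 400 Pa. Luminal markers summed to 237.1 and 217.7 FPKM at 60 kPa, against 349.4 and 373.4 FPKM at 400 Pa. Of these, KRT18 had 140 and 124 FPKM at 60 kPa, against 166 and 176 FPKM at 400 Pa. KRT19, CLDN3 and KIT of the same list were at or near 0 in all 4 libraries. The basal factor TP63 was at 10.4 and 9.32 FPKM on 60 kPa against 9.24 and 9.57 FPKM on 400 Pa and was not called (-0.03), nor was EPCAM (0.09).

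Immediate early and glucocorticoid genes held more falls than rises. Of 22 immediate early and AP-1 genes 9 fell and 1 rose. FOSL2 had 11.1 and 9.20 FPKM at 60 kPa, against 18.3 and 18.7 FPKM at 400 Pa. JUNB had 22.02 and 19.2 FPKM at 60 kPa, against 34.9 and 34.2 FPKM at 400 Pa. JUND had 15.4 and 16.5 FPKM at 60 kPa, against 26.1 and 29.98 FPKM at 400 Pa. These AP-1 subunits changed by -0.75, -0.63 and -0.66 (GC-adjusted -0.65, -0.37 and -0.40), and the 1 rise was MCL1, a survival protein (0.54). Of 25 glucocorticoid and circadian genes 8 fell and 3 rose, and of 10 between 45 and 55% GC 2 fell and 1 rose. Hydrocortisone was in the medium of both groups. TSC22D3 had 20.98 and 20.96 FPKM at 60 kPa, against 53.1 and 51.9 FPKM at 400 Pa, a change of -1.17 ± 0.07 (GC-adjusted -1.12), and the phosphatase DUSP1 and the factor CEBPD were at -0.62 and -0.68. The 3 rises were clock factors, CLOCK (0.59, GC-adjusted 0.38), ARNTL (0.28, GC-adjusted 0.18) and ARNTL2 (0.54, GC-adjusted 0.25). The call of ARNTL ended without the deeper 400 Pa library (0.32), the deeper 60 kPa library (0.24) and the shallower 400 Pa library (0.24), and that of ARNTL2 ended without the shallower 400 Pa library (0.42). FKBP5, a glucocorticoid target of the same list, had 188 and 167 FPKM at 60 kPa against 173 and 174 FPKM at 400 Pa and was not called (-0.06).

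Growth factor lists held calls in both directions, and that of Wnt and Notch had shares near those of all genes (11.9% higher and 10.3% lower). Of 31 EGF family and MAPK feedback genes 7 rose and 4 fell, with PHLDA1 at 0.53, against -0.39 for ERRFI1, an inhibitor of the EGF receptor. Of 32 TGF-beta and BMP genes 7 fell and 5 rose. ID1 had 47.4 and 51.4 FPKM at 60 kPa, against 79.9 and 89.4 FPKM at 400 Pa. ID3 had 24.7 and 19.6 FPKM at 60 kPa, against 45.9 and 50.1 FPKM at 400 Pa. Both are targets of BMP signalling and inhibitors of differentiation factors, and changed by -0.70 and -0.87 (GC-adjusted -0.49 and -0.69), while SMAD5, a mediator of the pathway, rose (0.71). Of 34 Wnt and Notch genes 5 rose and 4 fell, with the scaffold APC at 0.78, against -0.62 for NOTCH3 and -0.31 for the Wnt inhibitor DKK1. Of 36 insulin, mTORC1 and FOXO genes 11 fell and 2 rose, and of 12 between 45 and 55% GC 2 fell and 0 rose. TXNIP, an inhibitor of glucose uptake, had 21.9 and 19.97 FPKM at 60 kPa, against 54.9 and 54.5 FPKM at 400 Pa, a change of -1.25 ± 0.06 that was -1.40 after GC adjustment. SESN2, a stress sensor upstream of mTORC1, fell by 0.58, and PIK3R1, a regulatory subunit of PI3 kinase, rose by 0.69.

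Detoxifying enzymes had the largest share of falls among the metabolic lists. Of 30 tested 18 fell and 1 rose, with a median log2 fold change of -0.35 (GC-adjusted -0.30), and 8 of 15 between 45 and 55% GC fell. AKR1C1 had 42.9 and 39.4 FPKM at 60 kPa, against 100.1 and 102 FPKM at 400 Pa. AKR1C3 had 52.1 and 47.4 FPKM at 60 kPa, against 99.1 and 94.5 FPKM at 400 Pa. These aldo-keto reductases, which reduce steroids and aldehydes, changed by -1.18 and -0.88, and by -1.38 and -1.13 after GC adjustment; AKR1C genes are close paralogs, and reads shared between them could not be assigned here. MAOA, monoamine oxidase A, had 4.98 and 4.66 FPKM at 60 kPa, against 19.4 and 19.1 FPKM at 400 Pa, a change of -1.61 ± 0.07 (GC-adjusted -1.64). For AKR1C1, AKR1C3 and MAOA the adjustment made the falls larger, for MAOA only slightly. It shifted values downward there as it did in the 20 largest rises, which became smaller.

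Lipid and glycogen genes leaned downward as well. Of 35 tested 17 fell and 4 rose (median -0.23, GC-adjusted -0.18). PDK4, a kinase that shuts pyruvate dehydrogenase during fasting, had 2.62 and 2.41 FPKM at 60 kPa, against 9.66 and 10.1 FPKM at 400 Pa, a change of -1.15 ± 0.08 (GC-adjusted -1.45). PNPLA2, the triglyceride lipase, had 11.7 and 10.2 FPKM at 60 kPa, against 22.6 and 24.9 FPKM at 400 Pa. ECI1, of fatty acid oxidation, was at -0.61, and UGP2, which makes UDP-glucose, rose by 0.68. ACSL3, which activates fatty acids, rose too (0.61, GC-adjusted 0.27). Of 30 amino acid genes 10 fell and 4 rose. GLUL, glutamine synthetase, had 36.5 and 37.7 FPKM at 60 kPa, against 61.5 and 60.6 FPKM at 400 Pa. It changed by -0.77 (GC-adjusted -0.77). ASNS, asparagine synthetase, fell (-0.64), and AMD1, of polyamine synthesis, and the glutamine transporter SLC38A1 rose (0.80 and 0.60). Of 23 metal handling genes 3 fell (13%) and 2 rose (8.7%), near the shares of all genes (10.3% lower and 11.9% higher). The 3 that fell were the ferritin chains FTH1 (-1.05) and FTL (-1.18) and HMOX1 (-0.75), which breaks down haem. The 2 that rose were the zinc importers SLC39A6 (0.47) and SLC39A10 (0.66).

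Lysosomal genes leaned downward. Of 34 hydrolases and membrane proteins 13 fell and 1 rose (median -0.25, GC-adjusted -0.12), and 6 of 14 between 45 and 55% GC fell. CTSD, the aspartic protease, had 119 and 107 FPKM at 60 kPa, against 233 and 244 FPKM at 400 Pa, a change of -1.12 ± 0.05 (GC-adjusted -0.85). PSAP, the precursor of saposins, had 136 and 119 FPKM at 60 kPa, against 188 and 204 FPKM at 400 Pa. Progranulin, GRN, fell by 0.83. Of 35 autophagy genes 8 fell and 3 rose, led by the receptor SQSTM1. SQSTM1 had 125 and 113 FPKM at 60 kPa, against 269 and 293 FPKM at 400 Pa, a change of -1.29 ± 0.04 (GC-adjusted -1.10), and GABARAP of the autophagosome membrane was at -0.64, while PIK3R4, of the lipid kinase that starts autophagy, rose by 0.48. Of 16 genes of the proton pump that acidifies lysosomes 5 fell and 1 rose, with ATP6V0C of the membrane ring at -0.52 (GC-adjusted -0.26).

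Mitochondrial and secretory lists differed in their shares of calls. Of 52 genes of the mitochondrial ribosome 8 fell (15.4%) and 2 rose (3.85%). Of 34 of protein import 5 fell (14.7%) and 3 rose (8.82%). Rises in these lists included MRPL42 of the ribosome (0.76) and the translocase TIMM17A (0.52). Of 28 genes of mitochondrial DNA maintenance and expression 7 rose (25%) and 1 fell (3.57%). TFAM, which packs mitochondrial DNA, had 18.1 and 15.9 FPKM at 60 kPa, against 8.36 and 8.14 FPKM at 400 Pa, a change of 0.77 (GC-adjusted 0.44), with the RNA-binding LRPPRC at 0.52. Of 30 genes of mitochondrial dynamics 3 rose and 2 fell. DNM1L, the fission GTPase, had 24.9 and 22.6 FPKM at 60 kPa, against 13.9 and 12.4 FPKM at 400 Pa. OPA1, which fuses inner membranes, had 20.4 and 19.2 FPKM at 60 kPa, against 11.4 and 10.5 FPKM at 400 Pa. Both rose, by 0.64 and 0.66 (GC-adjusted 0.43 and 0.33). The list held shares of calls below those of all genes, 10% higher and 6.67% lower against 11.9% and 10.3%. The inner membrane protease YME1L1 rose by 0.47 and prohibitin PHB2 fell by 0.44. Of 28 genes of calcium uptake and apoptosis at mitochondria 4 rose and 4 fell (14.3% each), with cytochrome c, CYCS, at 0.74.

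In the secretory pathway, of 35 COPII and COPI genes 5 rose (14.3%) and 6 fell (17.1%). Of 38 of the ER translocon and glycosylation 8 rose and 8 fell (21.1% each), against 11.9% and 10.3% of all genes. The golgin GOLGA4 (0.74) and SEC62 (0.82), with 39.4% and 36.7% GC, rose, and the cargo receptor LMAN2 (-0.50), with 59.2% GC, fell. Of 35 proteasome genes 5 rose (14.3%) and 6 fell (17.1%), with PSMA4 at 0.59 and PSMB6 at -0.38. Of 31 cullin ligase genes 5 rose (16.1%) and 2 fell (6.45%), with the scaffold CUL4B at 0.91 and ELOB at -0.63. The heat shock factor HSF1 fell (-0.48, GC-adjusted -0.22), with 35.9 and 38.5 FPKM at 60 kPa against 49.8 and 53.2 FPKM at 400 Pa, a call that ended without the deeper 60 kPa library (-0.38) and the shallower 400 Pa library (-0.45).

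Antigen presentation and acute phase genes held falls and no rise. Of 25 tested 11 fell and 0 rose (median -0.13, GC-adjusted -0.24). C3, complement component C3, had 78.3 and 72.5 FPKM at 60 kPa, against 145 and 154 FPKM at 400 Pa, a change of -1.04 ± 0.04 (GC-adjusted -0.87). SAA1, serum amyloid A, had 39.5 and 51.2 FPKM at 60 kPa, against 103 and 104 FPKM at 400 Pa. HLA-C, a class I heavy chain, had 66.6 and 60.3 FPKM at 60 kPa, against 87.5 and 103 FPKM at 400 Pa. Its reads may be shared with its close paralogs. Complement factor B, CFB, was at -0.58. Of 9 leukocyte markers 3 could be tested and CD14 (-0.62) and CD68 (-0.36) fell beside them. These markers summed to 15.48 and 10.04 FPKM at 60 kPa, against 23.56 and 23.5 FPKM at 400 Pa, while PTPRC, CD3E and CD163 were listed at 0 in all 4 libraries. Fibroblast markers summed to 18.08 and 18.79 FPKM at 60 kPa, against 21.64 and 21.09 FPKM at 400 Pa, with COL1A2, COL3A1 and LUM at 0 and DCN, decorin, the member that fell (-0.49). Endothelial markers summed to 0.925 and 0.893 FPKM at 60 kPa, against 1.129 and 1.023 FPKM at 400 Pa, with VWF at 0 and KDR the member that fell (-0.17). The call of CD68 ended without the deeper 400 Pa library (-0.36) and the shallower 400 Pa library (-0.36), and that of KDR ended without the deeper 400 Pa library (-0.14). The part of other cells in these falls was not tested.

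Lists read as signs of RNA quality leaned downward too. Of 18 small nucleolar RNA host genes and nuclear RNAs 6 fell and 0 rose. GAS5, a host gene whose spliced RNA is cleared by translation-coupled decay, had 137 and 118 FPKM at 60 kPa, against 165 and 168 FPKM at 400 Pa. NEAT1, the scaffold of paraspeckles, had 14.03 and 12.9 FPKM at 60 kPa, against 22.2 and 23.4 FPKM at 400 Pa. GAS5 changed by -0.41 and NEAT1 by -0.91 (GC-adjusted -0.73 and -1.05). Of 7 replication-dependent histones, whose mRNAs mostly lack poly(A) tails, 0 rose and 2 fell. The 2 that fell were HIST1H2AC (-0.21) and HIST2H2BE (-0.15), the call of which ended without the deeper 400 Pa library (-0.15) and the shallower 400 Pa library (-0.14). The abundant HIST1H2BK (-0.35, GC-adjusted -0.10) and HIST1H1C (-0.29, GC-adjusted -0.11) were not called. The part of RNA quality in the results was not tested.

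A small set of genes changed in the direction opposite to the GC trend. In the quintile with the lowest GC content 35 of 2515 fell (1.39%), and 34 of these had groups that did not overlap in FPKM. In the quintile with the highest GC content 14 of 2515 rose (0.557%), and all 14 had groups that did not overlap. Such separation was near that of all called genes (98.1%), against 71.3% of all tested genes. The AT-rich falls held PDK4 (-1.15), AKR1C3 (-0.88), its paralog AKR1C2 (-0.68), BTG1 (-0.83), DCN (-0.49), the selenium carrier SELENOP (-0.39), the interferon receptor IFNGR1 (-0.33) and the claudin CLDN1 (-0.33). Among the GC-rich rises, picked by role, were UHRF1, which maintains DNA methylation with replication, INCENP of the chromosomal passenger complex and MYBL2, a factor of the MuvB complex. Others were the lamin LMNB2 (0.17), the tubulins TUBB4B (0.16) and TUBB6 (0.13) and the ribosomal RNA factor TCOF1 (0.30). The rest of the 14 include SNHG9 and the gene of the largest change (0.37), so the named genes do not stand for the set. UHRF1 had 15.97 and 15.9 FPKM at 60 kPa, against 11.2 and 11.3 FPKM at 400 Pa, a change of 0.32 that was 0.52 after GC adjustment. MYBL2 had 89.1 and 73.8 FPKM at 60 kPa, against 67.3 and 69.3 FPKM at 400 Pa. INCENP had 24.7 and 20.2 FPKM at 60 kPa, against 17.95 and 18.4 FPKM at 400 Pa. Their changes of 0.14 and 0.18 were smaller than those of the 20 largest rises, all of which were AT-rich. The call of MYBL2 ended without the deeper 400 Pa library (0.13), the deeper 60 kPa library (0.07) and the shallower 400 Pa library (0.15), and that of INCENP ended without the deeper 400 Pa library (0.18), the deeper 60 kPa library (0.11) and the shallower 400 Pa library (0.18). That of LMNB2 ended without the deeper 400 Pa library (0.14), and that of TUBB6 ended without the deeper 400 Pa library (0.08) and the shallower 60 kPa library (0.09).

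Chromosomes at the ends of the range of GC content differed in their shares of calls. On chromosome 19, of 59.4% median GC, 2.02% of 841 tested genes rose and 15.2% fell, with a median log2 fold change of -0.16 and, after GC adjustment, -0.04. On chromosome 4, of 43.2% median GC, 17.2% of 476 rose and 3.36% fell, with medians of 0.12 and 0.02. On chromosome 13, of 42.8% median GC, 17.8% of 230 rose and 5.22% fell, with medians of 0.14 and -0.01.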

How the data were processed

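RNA was sequenced from pooled gel cultures of MCF10A. The submitters' processing notes name STAR, HOMER, DESeq2 and hg19. HOMER's counting command, per the file headers, sets no strand option, and no source used here says whether reads were counted by strand, so overlapping and antisense genes may share reads. Per the file headers, the authors deposited 1 table of FPKM for all libraries and 1 table of stabilised log2 values for this comparison, whose method of stabilising the sources used here do not name. The authors' fold changes and p-values were not used.

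Libraries were taken by their column headings. Genes were joined by symbol, and 5849 tested genes stand on another accession in the FPKM table. Genes at 0 in all 4 libraries or with a mean log2 value under that of 10 reads were left out. limma 3.58.1 (R 4.3.3, eBayes with trend, Benjamini-Hochberg adjustment over 12720 genes, 2 residual degrees of freedom) was fitted to the deposited values and to values from which, for each library, a natural spline of 5 degrees of freedom of the deviation from the gene mean on GC content had been taken. GC content was known for 12575 genes, and a call needs both fits. The code was tested on simulated data.

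The 62 gene lists and the genes named were chosen with earlier results of these data known. Named are the 20 largest rises and falls with a mean of at least 5 FPKM, up to 4 called members of a list by size of change, a set of mechanics and mitochondrial genes, and the cell type markers. Genes beyond that rule, chosen after their values were seen, are PRC1, UHRF1, MYBL2, INCENP, FKBP5, LAMA3, members named because few of their list moved that way, the genes named against the GC trend, and those among other observations. Some genes that the rule names are not reported here.

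Alternatives were another GC rule, GC content with exon length, FPKM scales, a fit of all 10 libraries, other filters, no trend and each library left out. The 45 to 55% GC band was added after the data were seen.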

Additional observations from a re-analysis of the deposited data

How the results depend on the processing

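The counts moved with the GC rule, the scale and the libraries fitted. Without the adjustment for GC content 3382 genes rose and 3207 fell, and on GC-adjusted values alone 2502 rose and 2401 fell. On log2(FPKM + 1) 835 rose and 650 fell, of which 773 and 572 were shared with the calls reported. On log2(FPKM + 0.1) the counts were 775 and 555, in a fit of all 10 libraries 552 and 384, and with libraries centred on their medians 765 and 815. Leaving out 1 library gave 895 to 1690 rises and 737 to 1517 falls, the lowest of both without the shallower 400 Pa library. Adjusting for exon length as well (1447 and 1302), no filter (1856 and 1675), a stricter filter (1179 and 1004) and no mean-variance trend (1427 and 1233) stayed within 1.5 times. The cause of these differences was not tested, except that the alternatives on GC content ask for 1 fit in place of both.

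Of 295 called genes named by the rule or in the text, 74 of 294 lost their call on log2(FPKM + 1), and 8 to 34 did without 1 library; 0 turned round. The calls that ended on log2(FPKM + 1) were those of ACSL3, ARNTL, ARNTL2, ATP6V0C, ATRX, BCAR1, CAMSAP2, CAV2, CDC25B, CDC27, CLOCK, DKK1, EGFR, EIF1AX, HIST2H2BE, HSF1, IFNGR1, INCENP, JUND, KRT14, KRT18, KRT5, LAMA5, LAMB3, LBR, LMNB2, MOB1A, MYBL2, NCKAP1, NOTCH3, PHB2, POLD2, PRPF8, S100A6, SEPT9, SLC39A10, SLC39A6, SLC9A3R1, SMAD5, TAOK1, TIMM17A, TJP1, TUBB4B, TUBB6, VIM, YME1L1 and ZYX. On GC-adjusted values alone, MYH9 (0.13) and COL1A1 (0.16), which were below 0 and not called, passed as higher. Among genes called without GC adjustment, 7.43% of the promoters of rises held both promoter elements and 7.72% of those of falls held TTTGAA or TTCGAA. No paired analysis was possible because the table columns carry no replicate numbers. With 2 libraries a group, standard errors draw mainly on the spread of all genes, and the depth of the 60 kPa libraries limits genes with few reads.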

Other observations

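Noncoding RNA genes held smaller shares of calls. Of 707 tested 20 rose (2.83%) and 43 fell (6.08%), against 12.6% and 10.7% of 11825 protein-coding genes; their reads are few, and the shares were not tested. Genes here are named after their values were seen. MIR205HG, the host transcript of the epithelial microRNA miR-205, had 169.5 and 143 FPKM at 60 kPa, against 202 and 225 FPKM at 400 Pa, a change of -0.46 (GC-adjusted -0.47). TINCR, a noncoding RNA of epidermal differentiation, had 0.075 and 0.137 FPKM at 60 kPa, against 1.35 and 1.26 FPKM at 400 Pa, a change of -0.38 on the stabilised scale, and its call ended without the deeper 400 Pa library (-0.35) and the deeper 60 kPa library (-0.36). HAGLR, a transcript of the HOXD cluster, had 6.62 and 9.49 FPKM at 60 kPa, against 12.4 and 13.7 FPKM at 400 Pa, a change of -0.57. Among the rises were HIF1A-AS2 (0.84), HMMR-AS1 (0.58) and PRC1-AS1 (0.44), which lie against HIF1A, HMMR and PRC1. No source used here says whether reads were counted by strand, so these and their partners may share reads where they overlap.

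Some regulators outside the lists changed at a GC content near or above the middle. FOXM1, a factor that drives G2 and M phase genes, had 53.2 and 47.6 FPKM at 60 kPa, against 37.5 and 39.3 FPKM at 400 Pa, a change of 0.27 (GC-adjusted 0.38) at 54.0% GC. HMGA2, an architectural chromatin protein, had 18.5 and 14.4 FPKM at 60 kPa, against 7.96 and 7.55 FPKM at 400 Pa, a change of 0.75 (GC-adjusted 0.65) at 45.3% GC. In both genes the stiff libraries lay above the soft ones.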
